A study of Mus musculus with 17 samples.

Results

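The antioxidant system was followed through 10 of its genes in sorted mouse pancreatic β cells. The genes are *Gpx1*, *Gpx3*, *Gpx4*, *Txn1*, *Txnrd1*, *Sod1*, *Sod2*, *Nqo1*, *Srxn1* and *Gclm*. They were picked by gene symbol, with earlier results of these data known, and are 10 of 55357 annotated genes. All 10 passed the filter on low counts and are among the 22784 genes tested. The cells came from male mice on a C57BL/6 background in which Cre recombinase is driven by the rat insulin promoter (RIP-Cre) and a Rosa26 tdTomato reporter marks cells that have recombined. Control mice (labelled WT) carried the Cre and the reporter, and Pcbp2βKO mice carried in addition floxed alleles of *Pcbp2*, which encodes a poly(C)-binding RNA-binding protein. Islets of both genotypes were cultured for 72 hours in 2.8 or 16.7 mM glucose, and tdTomato-positive cells were sorted for RNA sequencing. The groups hold 3 control libraries at 2.8 mM, 4 control libraries at 16.7 mM and 5 Pcbp2βKO libraries at each glucose level. The age of these mice and the number of animals behind a library are not given in the sources used here, so a p-value measures only the spread between libraries.

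Cells form superoxide and hydrogen peroxide as by-products of respiration and of protein folding. Superoxide dismutases turn superoxide into hydrogen peroxide. Glutathione peroxidases and the thioredoxin–peroxiredoxin system then reduce peroxides, at the cost of glutathione, thioredoxin and NADPH. NRF2 is the transcription factor that raises many of these genes through antioxidant response elements in their promoters. Pancreatic islets are known for low catalase and glutathione peroxidase activity compared with liver, which has made this system a recurrent subject in β cell biology.

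Libraries held between 47385513 and 82419400 estimated counts. Values are given as library-size normalised counts after TMM scaling (CPM), which compare a gene between libraries, or as TPM, which also allow for transcript length. To be called, a gene had to change by more than 1.5-fold with an adjusted p under 0.05 in edgeR's quasi-likelihood test, adjusted over all genes tested. *Pcbp2* was lower in every Pcbp2βKO library than in every control library of the same glucose level, with 15.5 to 19.2 against 50.7 to 73.4 CPM at 2.8 mM and 5.81 to 10.03 against 35.01 to 45.4 CPM at 16.7 mM. Along the first principal component, 3 libraries at 16.7 mM stood apart from the others of their groups towards the 2.8 mM libraries: control replicate 4 and Pcbp2βKO replicates 4 and 5. Where a member's call changes without them, both values are given; the calls of *Gpx3* by genotype and of *Txn1*, *Srxn1*, *Gpx4* and *Sod1* by glucose held without them. Summed levels of 8 β cell markers ran from 66585 to 122021 CPM at 2.8 mM and from 269900 to 522454 CPM at 16.7 mM. Markers of acinar, endothelial and stellate cells summed to at most 1.04 CPM in any library. In bulk RNA, fewer cells of a type and less RNA per cell cannot be told apart.

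The coding sequences of the 10 genes separate them into selenoproteins and others. *Gpx1*, *Gpx3*, *Gpx4* and *Txnrd1* each hold 1 in-frame TGA codon ahead of the stop codon, which is read as selenocysteine, the catalytic residue. It is codon 47 of *Gpx1* (GRCm39, chr9:108216650-108216652), codon 73 of *Gpx3* (chr11:54798082-54798084), codon 73 of *Gpx4* (chr10:79890571-79890573) and codon 498 of 499 in *Txnrd1* (chr10:82731871-82731873), all on the plus strand and in a coding exon. The stretches below show that codon in capitals in the most abundant protein-coding transcript of each gene, because the member that differed most between genotypes is one of these 4 selenoproteins.
Gpx1: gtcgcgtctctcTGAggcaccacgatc
Gpx3: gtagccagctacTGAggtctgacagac
Gpx4: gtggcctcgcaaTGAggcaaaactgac
Txnrd1: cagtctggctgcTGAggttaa
In *Txnrd1* the codon stands next to the last before the stop, whereas in the 3 peroxidases it lies well inside the coding sequence. No in-frame TGA precedes the stop in *Txn1*, *Sod1*, *Sod2*, *Nqo1* or *Srxn1*, and the coding sequence of the main *Gclm* transcript was not analysed here.

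The promoters were searched for the core of the antioxidant response element, TGACNNNGC, on both strands, from 250 bases before to 50 bases after each start site in RefSeq's mouse annotation (GRCm38.p6). All 10 genes matched the table by symbol. The core was present in 4 of 15 promoters of these genes, against 12.4% of 32851 promoters of the whole table, and in 4 of 10 genes, against 14.0% of 27025 genes. Each match read GCNNNGTCA on the strand of the gene and is shown in capitals, because this element is what many of these genes are known for; distances are from the first base of the match to the start site.
Gclm (chr3:122245414-122245440, 134 bases before the start site): ctcccgggcGCACCGTCAactctcacg
Sod1 (chr16:90220697-90220723, 56 bases before): ccaaggtggGCGTGGTCAgactcaggc
Srxn1 (chr2:152105543-152105569, 28 bases after): cagtgggcaGCTAGGTCAgagtgagac
Txnrd1 (chr10:82859105-82859131, 92 bases before): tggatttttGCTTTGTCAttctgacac
These matches are a description of the letters and not of binding. Sequence outside this window was not searched, so a gene without a match, such as *Nqo1*, may hold the element elsewhere. Among the 4 genes, *Srxn1* was called higher under glucose, *Sod1* was called lower, and *Txnrd1* and *Gclm* were not called.

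Per length, *Gpx3* was the most abundant of the 10 genes in control cells. Its mean level at 2.8 mM was 829 ± 133 TPM (SD, n = 3), above *Gpx4* at 390.1 ± 25.4 TPM, *Sod1* at 332 ± 57.6 TPM, *Gpx1* at 207 ± 12.7 TPM and *Sod2* at 128 ± 12.6 TPM. *Gpx4* and *Sod1*, neighbours in this order, overlapped between libraries. *Txn1* (60.2 ± 4.42 TPM), *Srxn1* (52.9 ± 1.93 TPM) and *Txnrd1* (42.3 ± 2.54 TPM) followed. *Nqo1* (9.38 ± 3.77 TPM) and *Gclm* (5.49 ± 3.69 TPM) were lowest and overlapped with each other. In Pcbp2βKO cells at 2.8 mM, *Gpx3* stood at 95.2 ± 41.5 TPM (n = 5), below *Gpx4* (382 ± 54.1 TPM) and *Sod1* (382 ± 75.4 TPM) in mean and in range.

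The knockout comparison asks how loss of *Pcbp2* changes these genes at a given glucose level. *Gpx3*, which encodes the secreted plasma glutathione peroxidase (ENSMUSG00000018339, GRCm39 chr11:54793279-54802424, plus strand), was lower in Pcbp2βKO cells at both glucose levels and was the only member called. At 2.8 mM the control libraries held 1157, 1181 and 1387 CPM of *Gpx3*, and the Pcbp2βKO libraries 61.2, 175, 73.3, 139.7 and 207 CPM. At 16.7 mM the control libraries held 1506, 2943, 2422 and 566 CPM, and the Pcbp2βKO libraries 272, 493, 150.3, 70.9 and 127 CPM. The genotypes did not overlap at either glucose level, although the lowest control library at 16.7 mM, replicate 4, was close to the highest knockout library. This absence of overlap was shared by 10.9% of all genes tested at 2.8 mM and 4.49% at 16.7 mM. *Gpx3* fell by 3.24 on the log2 scale at 2.8 mM (SE 0.55, adjusted p = 0.0022) and by 3.06 at 16.7 mM (SE 0.52, adjusted p = 0.0029). In linear terms it decreased by 89.4% at 2.8 mM and by 88.0% at 16.7 mM. Without the 3 libraries that stood apart the log2 fold changes were -3.23 and -2.91. One member of 10 was thus called lower at each glucose level, against 1.78% of all genes at 2.8 mM and 1.42% at 16.7 mM. Of the 464 genes called at 2.8 mM 58 were higher, against 86 of 261 on log2(TPM + 1); *Gpx3* was called lower on every scale.

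**Figure D1:**
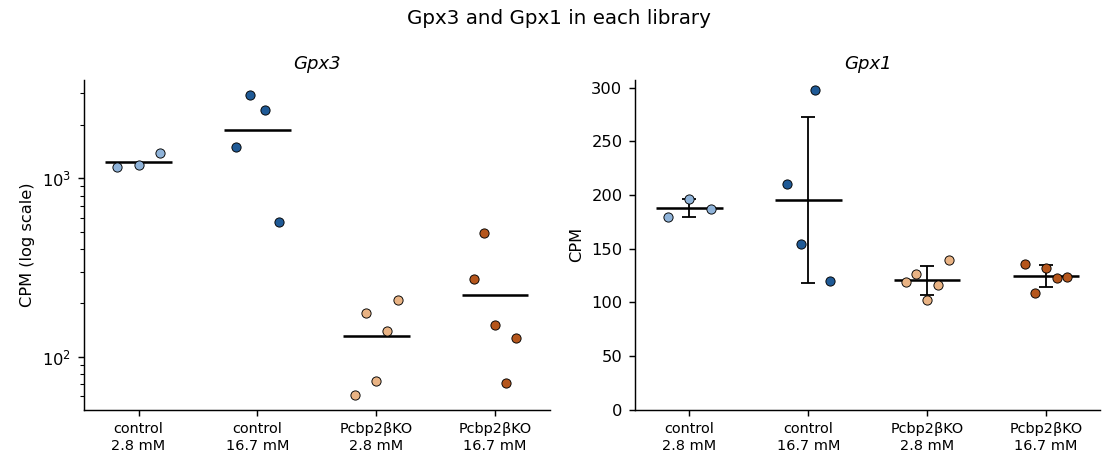
CPM of *Gpx3* (left, log axis) and *Gpx1* (right, axis from 0) in every library of the 4 groups. Points are libraries, horizontal lines are group means and bars on the right are SD. *Gpx3* lay between 566 and 2943 CPM in controls and between 61.2 and 493 CPM in Pcbp2βKO cells, and *Gpx1* overlapped between genotypes only at 16.7 mM.

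Markers of other cell types were set beside the *Gpx3* result. *Gcg*, which encodes glucagon and marks α cells, ranged from 625 to 2543 CPM in control and from 1452 to 9159 CPM in Pcbp2βKO cells at 2.8 mM, and from 260.2 to 1448 against 172 to 1301 CPM at 16.7 mM, with overlap at both levels. Summed β cell markers were 117909 to 122021 CPM in control and 66585 to 96867 CPM in Pcbp2βKO cells at 2.8 mM, without overlap, and overlapped at 16.7 mM (269900 to 522454 against 357199 to 472074 CPM). Insulin and amylin transcripts made up nearly all of this sum. Not every insulin or amylin gene in it was called between genotypes at 2.8 mM. The other markers in the sum were not called there. Their log2 fold changes were 0.012 for *Nkx6-1*, 0.0074 for *Ucn3*, -0.24 for *Pdx1*, -0.85 for *Slc2a2* and -1.18 for *Mafa*. The δ cell and macrophage sums overlapped between genotypes at both glucose levels. *Ppy*, the PP cell marker, held 797 to 835 CPM in control and 992 to 5112 CPM in Pcbp2βKO cells at 2.8 mM, without overlap, and overlapped at 16.7 mM. Of the ductal list, *Spp1*, which encodes osteopontin, held 210.1, 799, 258 and 46.5 CPM in the control and 74.4, 142, 23.2, 23.8 and 12.2 CPM in the Pcbp2βKO libraries at 16.7 mM. Within each genotype at 16.7 mM, *Gpx3* and *Spp1* were both highest in replicate 2. At 2.8 mM *Spp1* was again highest in replicate 2 (113.6 CPM in control, 83.2 CPM in Pcbp2βKO cells), but *Gpx3* was highest in control replicate 3 and Pcbp2βKO replicate 5. The defining ductal markers *Krt19* and *Sox9* were at most 2.17 and 1.07 CPM in any library. The part of cell composition in the *Gpx3* difference was not tested.

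The genes whose pattern over the 17 libraries was nearest to that of *Gpx3* were *Palld*, which encodes the actin-associated protein palladin, and *Pros1*, which encodes protein S. The root mean square difference of the centred log2 CPM was 0.44 for *Palld* and 0.67 for *Pros1*, over 17 libraries and among 10013 genes with a mean of at least 5 CPM, where *Gpx3* itself had an SD of 1.87.

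*Gpx1*, the cytosolic and mitochondrial glutathione peroxidase (ENSMUSG00000063856, chr9:108216102-108217546), was lower in mean in Pcbp2βKO cells but was not called. At 2.8 mM it held 179, 196 and 187 CPM in control and 119, 127, 102, 116 and 139 CPM in Pcbp2βKO cells, which did not overlap. At 16.7 mM it held 210.1, 154, 297 and 119.7 CPM in control and 135, 109, 132, 123 and 124 CPM in Pcbp2βKO cells, where control replicate 4 lay among the knockout libraries. The log2 fold change was -0.64 at 2.8 mM (SE 0.20, adjusted p = 0.129) and -0.65 at 16.7 mM (SE 0.19, adjusted p = 0.096). Without the 3 libraries that stood apart it passed the threshold at both levels, with log2 fold changes of -0.63 (adjusted p = 0.0498) and -0.82 (adjusted p = 0.0273). Leaving out control replicate 4 at 16.7 mM alone gave -0.84 at 16.7 mM (adjusted p = 0.0061), and leaving out control replicate 3 gave -0.37 (adjusted p = 0.435).

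*Gpx4*, the glutathione peroxidase that reduces lipid hydroperoxides in membranes, was called in neither knockout comparison. Its 95% intervals for the log2 fold change in Pcbp2βKO cells ran from -0.45 to 0.09 at 2.8 mM and from -0.58 to -0.09 at 16.7 mM (adjusted p = 0.614 and 0.210). *Txnrd1*, the cytosolic thioredoxin reductase that recharges thioredoxin with NADPH, was higher in all 5 Pcbp2βKO libraries (139 to 179 CPM) than in the 3 controls (125 to 131 CPM) at 2.8 mM. Its interval there ran from 0.05 to 0.52 and it was not called (adjusted p = 0.258). At 16.7 mM its interval ran from 0.025 to 0.46 (adjusted p = 0.336). For the other 6 members the adjusted p was at least 0.477 at 2.8 mM and at least 0.691 at 16.7 mM. The widest of their intervals was that of *Gclm* at 2.8 mM, from -0.16 to 2.34, and the narrowest that of *Sod2* at 16.7 mM, from -0.26 to 0.18.

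**Figure D2:**
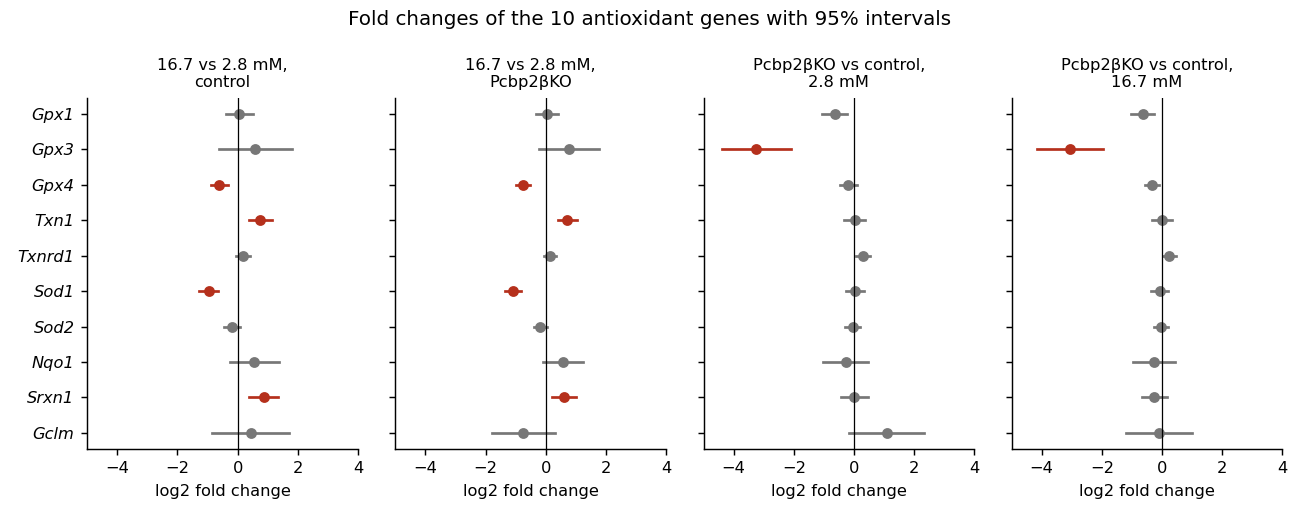
Log2 fold changes of the 10 genes (points) with 95% intervals (lines) from the edgeR fit, in the 2 glucose comparisons (left 2 panels) and the 2 knockout comparisons (right 2 panels). Red marks a gene called at adjusted p below 0.05 and a fold above 1.5; grey marks the rest. *Gpx3* lies near -3 in both knockout comparisons, and the same 4 genes are red in both glucose comparisons.

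The glucose comparison asks which of these genes respond to 72 hours at 16.7 mM against 2.8 mM. With TMM scaling, in control cells *Txn1* and *Srxn1* were called higher and *Gpx4* and *Sod1* lower, and the same 4 genes were called in the same direction in Pcbp2βKO cells. For each direction that is 2 of 10 members, against 7.15% of all genes called higher and 6.69% called lower in control cells, and 13.4% and 10.4% in Pcbp2βKO cells. Libraries of the glucose levels did not overlap for 5 members in control cells and 3 in Pcbp2βKO cells, against 24.1% and 21.6% of all genes. The comparisons in control and in Pcbp2βKO cells share no library. With the replicate number as a block, 4775 instead of 3153 genes were called in control cells, with 4 members among them as without it.

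The 2 called decreases held under every scaling tried. *Sod1*, the copper-zinc superoxide dismutase of the cytosol (ENSMUSG00000022982, chr16:90017408-90027657), held 148, 181 and 110.4 CPM at 2.8 mM and 81.0, 71.5, 81.2 and 66.0 CPM at 16.7 mM in control cells. In Pcbp2βKO cells it held 153, 175, 145, 152 and 127 CPM at 2.8 mM and 70.6, 73.4, 69.4, 67.0 and 73.4 CPM at 16.7 mM. No library at 16.7 mM reached any library at 2.8 mM in either genotype. *Sod1* fell by 0.97 on the log2 scale in control cells (SE 0.15, adjusted p = 7.0e-04) and by 1.09 in Pcbp2βKO cells (SE 0.12, adjusted p = 1.1e-05).

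*Gpx4* (ENSMUSG00000075706, chr10:79883000-79892273) held 292, 332 and 256 CPM at 2.8 mM and 227, 181, 174 and 187 CPM at 16.7 mM in control cells. In Pcbp2βKO cells it held 280.1, 263, 250.4, 267 and 232 CPM at 2.8 mM and 158, 135, 144, 177 and 148 CPM at 16.7 mM. The glucose levels were separate in both genotypes. The decrease was 0.61 on the log2 scale in control cells (SE 0.13, adjusted p = 0.0057), just past the 1.5-fold threshold, and *Gpx4* fell by 0.76 in Pcbp2βKO cells (SE 0.11, adjusted p = 7.4e-05). Leaving out control replicate 2 at 2.8 mM, or replicate 2, 3 or 4 at 16.7 mM, brought the control value under 1.5-fold, with values from -0.51 to -0.58 and adjusted p below 0.05 in each. Annotated *Gpx4* pseudogenes held at most 28.8 estimated counts in any library.

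Markers of other cell types also differed between glucose levels. The 4 macrophage markers summed to 18.1 to 65.2 CPM at 2.8 mM and 2.21 to 15.1 CPM at 16.7 mM in control cells, and to 26.1 to 152 and 1.64 to 13.5 CPM in Pcbp2βKO cells, without overlap in either genotype. In Pcbp2βKO cells *Gcg* (-2.92, adjusted p = 0.0025) and *Ppy* (-1.92, adjusted p = 0.0024) were called lower at 16.7 mM, as were the macrophage markers *Lyz2* (-4.42, adjusted p = 0.0017) and *Cd68* (-2.56, adjusted p = 4.3e-04). In control cells *Gcg* (-1.36, adjusted p = 0.231), *Ppy* (-1.16, adjusted p = 0.126), *Lyz2* (-2.71, adjusted p = 0.0771) and *Cd68* (-1.22, adjusted p = 0.122) were not called. Their part in the glucose changes of *Sod1*, *Gpx4*, *Txn1* and *Srxn1* was not tested.

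The 2 called increases depended on the scaling. *Txn1*, cytosolic thioredoxin (ENSMUSG00000028367, chr4:57934208-57956424, minus strand), held 56.7, 59.4 and 45.9 CPM at 2.8 mM and 101, 94.98, 106 and 62.1 CPM at 16.7 mM in control cells. In Pcbp2βKO cells it held 60.5, 46.3, 49.2, 53.3 and 64.8 CPM at 2.8 mM and 101, 88.8, 101, 72.6 and 88.7 CPM at 16.7 mM. The glucose levels did not overlap in either genotype, with control replicate 4 at 16.7 mM closest to the 2.8 mM libraries. With TMM scaling *Txn1* rose by 0.75 on the log2 scale in control cells (SE 0.18, adjusted p = 0.0096) and by 0.72 in Pcbp2βKO cells (SE 0.15, adjusted p = 0.0012).

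*Srxn1*, sulfiredoxin, which restores overoxidised peroxiredoxins (ENSMUSG00000032802, chr2:151947436-151957687), held 158, 146 and 133 CPM at 2.8 mM and 279, 297, 301 and 186 CPM at 16.7 mM in control cells. In Pcbp2βKO cells it held 126, 156, 109, 122 and 218 CPM at 2.8 mM and 256, 271, 225, 179 and 178 CPM at 16.7 mM. The glucose levels were separate in control cells, whereas in Pcbp2βKO cells replicate 5 at 2.8 mM lay above 2 libraries at 16.7 mM. With TMM scaling *Srxn1* rose by 0.87 in control cells (SE 0.23, adjusted p = 0.0159) and by 0.60 in Pcbp2βKO cells (SE 0.19, adjusted p = 0.0205), the latter just past 1.5-fold. The call was lost when any of 2 libraries was left out in control cells (replicates 2 and 3 at 2.8 mM) or any of 5 in Pcbp2βKO cells (replicates 1, 3 and 4 at 2.8 mM and replicates 1 and 2 at 16.7 mM), with values from 0.51 to 0.87.

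Total counts without scaling factors moved the median of all genes to -0.35 in control and -0.47 in Pcbp2βKO cells. The same genes were called with TMM scaling of counts adjusted for transcript length. With total counts *Txn1* stood at 0.34 and 0.23 and *Srxn1* at 0.46 and 0.11, none of them called. On log2(TPM + 0.1), where the median of all genes was -0.56 and -0.71, *Txn1* stood at -0.084 and -0.31 and *Srxn1* at 0.049 and -0.37. On these scales both genes lay above the median of all genes, whereas on log2(TPM + 1) in Pcbp2βKO cells *Srxn1* (-0.37) lay below it (-0.33). *Sod1* and *Gpx4* were lower than that median on each scale, with log2(TPM + 0.1) values of -1.83 and -1.41 in control and -2.17 and -1.80 in Pcbp2βKO cells. Of all genes called, 1629 of 3153 were higher in control cells with TMM scaling, 782 of 4837 with total counts and 440 of 9034 on log2(TPM + 0.1). In Pcbp2βKO cells these were 3056 of 5431, 1482 of 7851 and 661 of 12486. Total counts and TPM divide by a library's total, which includes the β cell markers. Their sum went from 117909 to 122021 CPM at 2.8 mM to 269900 to 522454 CPM at 16.7 mM in control cells. In Pcbp2βKO cells it went from 66585 to 96867 CPM to 357199 to 472074 CPM. The part of these markers in the shifts between scales was not tested.

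**Figure D3:**
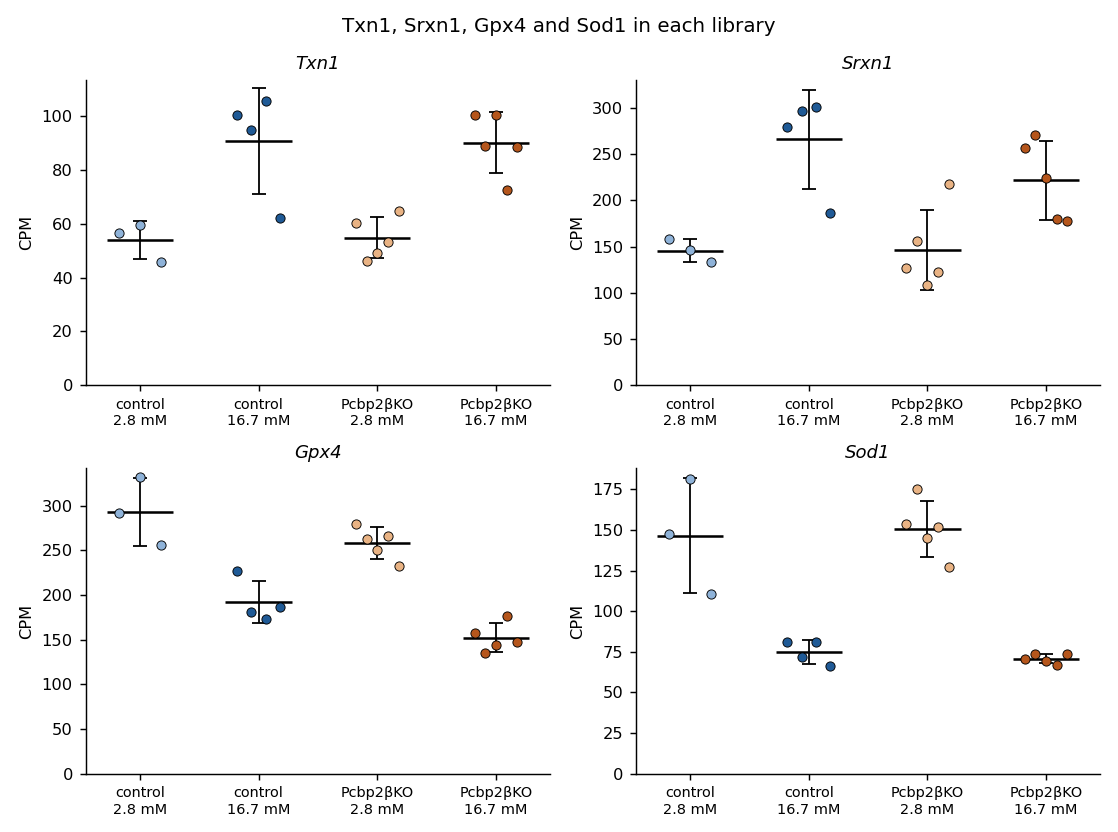
CPM (axes from 0) of *Txn1*, *Srxn1*, *Gpx4* and *Sod1* in every library of the 4 groups. Points are libraries, lines are group means and bars are SD. *Gpx4* and *Sod1* are lower at 16.7 mM in every library of both genotypes, and *Srxn1* overlaps between glucose levels in Pcbp2βKO cells.

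By the measure used for *Gpx3*, the nearest patterns over the 17 libraries were those of *AI413582* and *Wdr74* to *Gpx4* (root mean square difference 0.12 each), of *Surf1* and *Rps25* to *Sod1* (0.14 each), of *Rps4l* and *Pdzd11* to *Txn1* (0.13 each), and of *Gpr180* (0.12) and *Sar1a* (0.15) to *Srxn1*. The 4 genes themselves had SDs of 0.40, 0.55, 0.43 and 0.48 in the same order.

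*Gpx3* was not called between glucose levels. Its log2 fold change was 0.58 in control cells (SE 0.58, adjusted p = 0.556) and 0.76 in Pcbp2βKO cells (SE 0.47, adjusted p = 0.250), and both signs turned on the TPM scale (-0.45 and -0.43). Without the 3 libraries that stood apart the values were 0.86 (adjusted p = 0.176) and 1.18 (adjusted p = 0.0247), the second past the threshold.

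*Sod2*, the manganese superoxide dismutase of mitochondria, held 135 to 164 CPM in control and 133 to 158 CPM in Pcbp2βKO cells at 2.8 mM, and 124 to 149 and 113 to 147 CPM at 16.7 mM. Its log2 fold change was -0.19 in control (SE 0.12, adjusted p = 0.330) and -0.18 in Pcbp2βKO cells (SE 0.10, adjusted p = 0.195). On log2(TPM + 0.1) it was called lower in both genotypes, at -1.02 and -1.34. *Txnrd1* held 125 to 131 CPM at 2.8 mM and 133 to 158 CPM at 16.7 mM in control cells, which did not overlap, and its 95% interval ran from -0.07 to 0.42. In mean TPM it was lower at 16.7 mM, at 27.7 against 42.3 in control and 30.9 against 56.3 in Pcbp2βKO cells. With TMM scaling *Gpx1* was not called between glucose levels (0.058 in control and 0.045 in Pcbp2βKO cells). Its mean TPM was 207 at 2.8 mM and 122 at 16.7 mM in control cells, and 145 and 73.5 in Pcbp2βKO cells.

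*Nqo1*, a quinone reductase, and *Gclm*, the modifier subunit of the enzyme that limits glutathione synthesis, were the least abundant of the 10 genes. *Nqo1* ranged from 4.87 to 27.8 CPM over the 17 libraries, and its glucose intervals ran from -0.25 to 1.37 in control and from -0.10 to 1.23 in Pcbp2βKO cells. *Gclm* ranged from 5.66 to 66.2 CPM. Its control libraries at 16.7 mM alone held 5.66, 11.5, 17.1 and 38.1 CPM, and its glucose intervals ran from -0.84 to 1.70 in control and from -1.80 to 0.29 in Pcbp2βKO cells. Neither gene was called, except *Nqo1* in Pcbp2βKO cells with the replicate block.

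**Figure D4:**
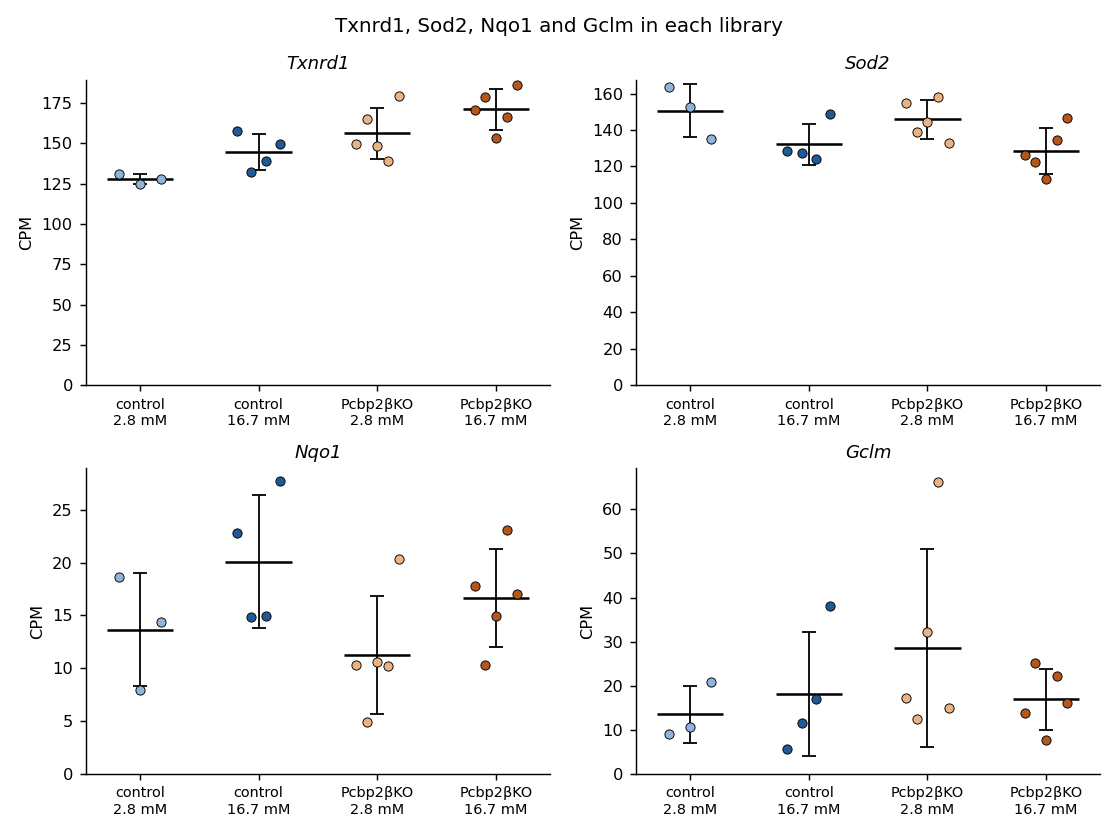
CPM (axes from 0) of *Txnrd1*, *Sod2*, *Nqo1* and *Gclm*, which with *Gpx1* were called in no comparison, in every library of the 4 groups. Points are libraries, lines are group means and bars are SD. *Txnrd1* and *Sod2* vary little within a group, while *Gclm* ranges from 5.66 to 66.2 CPM.

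The interaction of genotype and glucose asks whether the glucose response differs between genotypes. No member was called, against 0.00439% of all genes (1 gene) in the edgeR fit, and no member had an unadjusted p below 0.05. DESeq2 called 32 genes and again no member. For *Gpx3* the difference between the glucose effects was 0.18 on the log2 scale, with an interval from -1.37 to 1.73, and for *Srxn1* it was -0.27, with an interval from -0.88 to 0.35. The intervals were narrower for *Sod1* (-0.53 to 0.29), *Gpx4* (-0.52 to 0.21) and *Txn1* (-0.51 to 0.45), and they do not show that the responses are alike.

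Transcripts were compared within each gene by the share of its TPM that the most abundant annotated transcript took. *Txn1* and *Nqo1* had only 1 transcript above 0 and were left out. None of 32 tests (8 genes, 4 comparisons of 2 groups) passed after adjustment, and 3 had an unadjusted p below 0.05. The smallest was p = 0.0079 for *Sod1* under glucose in Pcbp2βKO cells (two-sided exact permutation test, adjusted p = 0.254), where the share of its main transcript moved from 99.8% to 99.4%; this is the smallest p that 5 against 5 libraries allow. With 3 against 4 libraries no test could go below 0.0571. At these library numbers no single share could pass the adjustment over 32 tests on its own, so the lack of passes does not show that the shares were stable. *Gpx4-202*, the main protein-coding *Gpx4* transcript, took 76.8% to 88.0% of *Gpx4* TPM in single libraries, and *Gpx4-207* most of the rest. *Txnrd1-201* took 47.2% to 63.6%. Of *Sod2* TPM, 55.0% on average was assigned to *Sod2-207*, annotated as a processed transcript, and 36.2% to *Sod2-204*, annotated with a retained intron, while the coding *Sod2-201* held 6.87%. Gene totals of *Sod2* therefore count mostly transcripts annotated as non-coding when expressed per length. The main *Gclm* transcript took between 5.92% and 73.1% in single libraries.

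Other genes of the antioxidant system were read from 8 lists with 76 genes, of which 75 were tested. Under glucose, 9 were called higher and 11 lower in control cells, where 7.15% and 6.69% of all genes were, and 13 and 13 in Pcbp2βKO cells, where 13.4% and 10.4% were. Without the 3 libraries that stood apart these were 12 and 17 in control and 16 and 18 in Pcbp2βKO cells. With the replicate block they were 12 and 15 in control and 13 and 14 in Pcbp2βKO cells. Their median log2 fold change was 0.019 in control cells, beside 0.038 for all genes, and -0.071 in Pcbp2βKO cells, beside 0.012. With total counts the control split was 4 higher and 20 lower, and on log2(TPM + 0.1) it was 3 and 40.

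In the thioredoxin and glutaredoxin list, *Txnip*, the glucose-responsive inhibitor of thioredoxin, held 19.0 to 28.5 CPM at 2.8 mM and 508 to 723 CPM at 16.7 mM in control cells, a rise of 4.78 on the log2 scale (SE 0.37, adjusted p = 3.9e-06). It rose by 4.22 in Pcbp2βKO cells (SE 0.29, adjusted p = 1.9e-07). *Glrx3*, a monothiol glutaredoxin, fell by 1.16 in control and by 1.19 in Pcbp2βKO cells. In Pcbp2βKO cells *Glrx*, a dithiol glutaredoxin, was also called higher (1.31) and *Txnrd3*, a thioredoxin reductase and selenoprotein, lower (-1.18). *Sod3*, the extracellular superoxide dismutase, held 28.1, 28.6, 20.3 and 0.176 CPM in control and 9.75, 6.61, 8.42, 0.255 and 0.0514 CPM in Pcbp2βKO cells at 16.7 mM, and at most 0.271 CPM at 2.8 mM. It was called higher in both genotypes, and the 3 libraries at 16.7 mM that stood apart were the 3 that did not hold it above the 2.8 mM range. *Cat*, which encodes catalase, fell by 1.71 in control and by 1.75 in Pcbp2βKO cells, from 24.3 to 36.0 CPM at 2.8 mM to 5.58 to 20.7 CPM at 16.7 mM in controls. *Prdx1*, a cytosolic peroxiredoxin, rose by 0.60 and 0.65 with TMM scaling and stood at -0.24 and -0.42 on log2(TPM + 0.1).

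Of the 15 tested genes of glutathione synthesis, recycling and use, *Gpx2*, the gastrointestinal glutathione peroxidase, was called higher in both genotypes (2.10 in control, 1.61 in Pcbp2βKO cells). Lower in both were *Gss*, glutathione synthetase (-0.91 and -1.01), *Ggct* (-0.83 and -0.82) and *Gsto1* (-1.53 and -1.29). *Slc7a11*, the cystine transporter that feeds glutathione synthesis, was called higher in Pcbp2βKO cells (1.46, adjusted p = 0.0013) and stood at 1.02 in control cells (adjusted p = 0.063). *Mgst1*, the microsomal glutathione transferase, was called lower in Pcbp2βKO cells (-2.79). Of the NADPH supply, *Idh1* (1.09 and 1.59), *Pgd* (0.97 and 0.69) and *G6pdx* (0.74 and 1.00) were called higher and the mitochondrial *Idh2* (-1.04 and -1.02) lower in both genotypes, and *Nnt*, the mitochondrial transhydrogenase, was called higher in Pcbp2βKO cells (0.86) with its sign turned on log2(TPM + 0.1). On that scale the sign also turned for *G6pdx* in both genotypes (-0.12 and -0.13) and for *Pgd* in Pcbp2βKO cells (-0.32). Of the increases named here that kept their sign on log2(TPM + 0.1), those of *Txnip* in both genotypes and of *Sod3* and *Gpx2* in control cells kept the call. The others lost it, among them *Idh1* (0.14 in control, 0.39 in Pcbp2βKO cells), *Pgd* in control cells (0.17), *Glrx* (0.28) and *Slc7a11* (0.24) in Pcbp2βKO cells and *Osgin1* in control cells (0.45). Of 6 genes for selenoprotein synthesis, *Eefsec*, the selenocysteine elongation factor (-0.71 and -0.68), and *Trnau1ap* (-1.05 and -1.28) were lower in both genotypes and none was higher. Among 12 other selenoproteins, *Selenow* (-2.14 and -1.99) and *Selenoh* (-1.21 and -0.78) were lower in both, and *Dio1* was higher in both with TMM scaling (0.93 and 0.62), with its sign in Pcbp2βKO cells turned on log2(TPM + 0.1) (-0.40). *Selenop*, the selenium carrier, was called higher in Pcbp2βKO cells (0.77), and its sign turned on that scale as well.

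**Figure D5:**
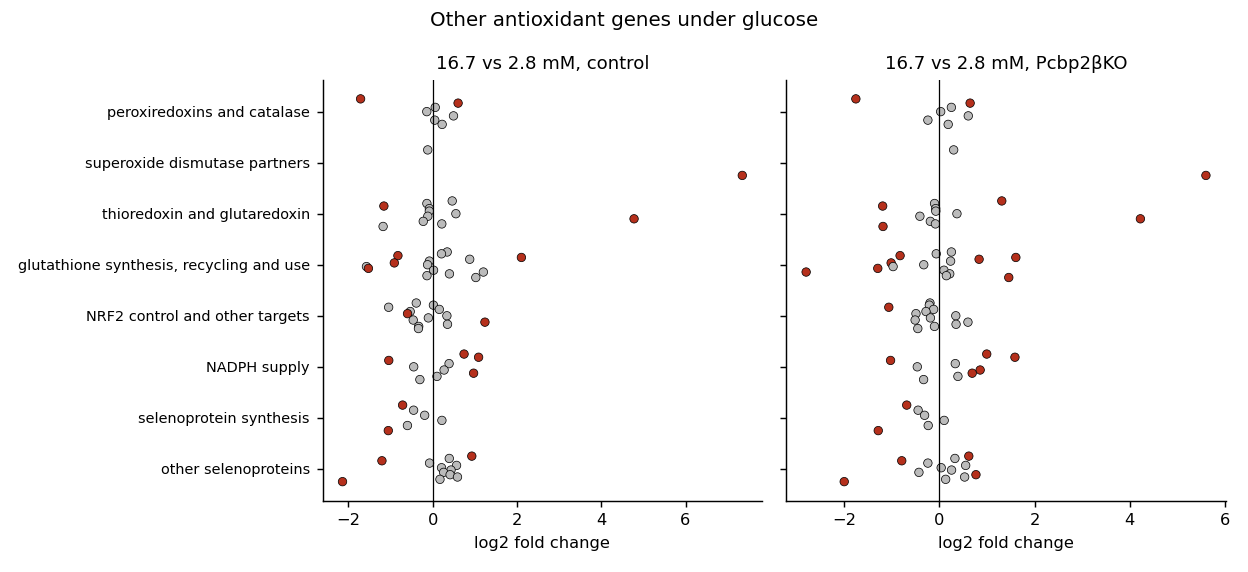
Log2 fold changes of 75 further antioxidant genes (points) at 16.7 against 2.8 mM in control (left) and Pcbp2βKO cells (right), by list. Red marks a called gene. *Sod3* and *Txnip* lie farthest to the right in both genotypes, and each panel holds called genes on both sides of 0.

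Of the 13 genes of the NRF2 list, 1 was called higher and 1 lower in control cells, and 1 lower in Pcbp2βKO cells, beside the shares of all genes given above. *Osgin1* was called higher (1.24) and *Hmox2* lower (-0.60) in control cells, and *Blvrb* lower (-1.06) in Pcbp2βKO cells. *Nfe2l2*, which encodes NRF2, stood at -0.46 in control (adjusted p = 0.205) and -0.50 in Pcbp2βKO cells (adjusted p = 0.062), and *Keap1*, its inhibitor, at 0.34 (adjusted p = 0.130) and 0.35 (adjusted p = 0.035, under 1.5-fold).

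Between genotypes, 1 of the 75 list genes was called higher at 2.8 mM, against 0.255% of all genes, and none lower; 2 were called lower at 16.7 mM, against 1.42% of all genes, and none higher. At 2.8 mM the counts were 2 higher and 2 lower with only the groups compared, and likewise without the 3 libraries that stood apart. At 16.7 mM the 2 lower calls became 0 on log2(TPM + 1), 1 on log2(TPM + 0.1), 1 with only the groups compared and 3 with the replicate block. *Dio1*, type 1 deiodinase, held 75.4 to 101 CPM in control and 132 to 180.3 CPM in Pcbp2βKO cells at 2.8 mM (0.81, SE 0.18, adjusted p = 0.0195). *Mgst1* held 1.12, 0.659, 9.51 and 1.70 CPM in control and 0.0684, 0.0321, 0.154, 0.067 and 0.0642 CPM in Pcbp2βKO cells at 16.7 mM, without overlap (-5.37, SE 0.76, adjusted p = 4.7e-04). *Txnrd2*, the mitochondrial thioredoxin reductase and a selenoprotein, held 33.5, 24.8, 43.5 and 29.1 CPM in control and 19.8 to 22.9 CPM in Pcbp2βKO cells at 16.7 mM (-0.65, SE 0.14, adjusted p = 0.0195), and was not called on the TPM scales, with only the groups compared or without the 3 libraries (adjusted p from 0.0532 to 0.0778).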

How the data were processed

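RNA from sorted tdTomato-positive β cells was sequenced by the study, and transcript abundance was estimated with Kallisto on GRCm39, per the labels and the methods. The authors deposited, for each library, estimated counts and TPM per transcript; the transcript's effective length, deposited in the same files, entered 1 alternative. Estimated counts were summed by gene identifier and rounded. edgeR 4.0.16 (R 4.3.3) fitted 4 group means over 17 libraries with TMM scaling, filterByExpr and quasi-likelihood tests, adjusted over 22784 genes by Benjamini-Hochberg. SE is the log2 fold change divided by the root of the quasi-likelihood F statistic. A gene was called at adjusted p below 0.05 and a fold above 1.5. The study's fit used a batch factor whose levels are not given in the sources used here. Transcript shares were compared by exact permutation tests (scipy 1.17.1). Alternatives used DESeq2 1.42.0 and limma 3.58.1. The fit was checked on simulated data, and the permutation test on fixed values of known p. The named genes are the 10 members, up to 5 called genes a list, *Pcbp2*, markers that moved with a member and the nearest patterns; members and lists were chosen with earlier results of these data known, and *Nfe2l2* and *Keap1* were named after their values were seen. The groups hold 3 to 5 libraries, which limits precision. Replicate numbers deviated together between glucose levels in both genotypes. Every same-number correlation was at least 0.123 in control and 0.0664 in Pcbp2βKO cells, where different-number correlations were at most 0.044. Between genotypes the lowest same-number value ran from -0.0072 to 0.0474, and some different-number values were higher. The numbers thus pair the libraries in both glucose comparisons, although the labels do not say what an equal number marks. Printed values of both glucose comparisons are from the fit without the block. Blocked counts of called members and list genes are given beside them. Some marker genes are not reported here.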

Additional observations from a re-analysis of the deposited data

Results flagged for a closer look

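*Sod2* in control replicate 4 at 16.7 mM held 149 CPM, above the other 3 libraries of its group at 124 to 128 CPM. The gap was 0.833 of the group's range, above Dixon's 95% critical value for 4 libraries. It was the only such value among 30 sets of libraries tested (the 10 genes in the 3 groups of 4 or 5 libraries), of which about 1 in 20 would pass by chance. The same library is 1 of the 3 that stood apart at 16.7 mM.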

How the results depend on the processing

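For the 18 fold changes of members given with their alternatives, 307 of 348 alternative values kept sign and call, 18 lost the call, 10 gained it and 13 turned in sign. The sign turned on log2(TPM + 1) for *Txn1* (-0.083 in control, -0.30 in Pcbp2βKO cells), *Srxn1* in Pcbp2βKO cells (-0.37) and *Gpx3* (-0.45 and -0.42), and on log2(TPM + 0.1) for the same genes (-0.084 and -0.31, -0.37, -0.45 and -0.43), with adjusted p from 0.0076 to 0.680. The interaction estimate of *Gpx3* turned with the replicate block (-0.080) and ranged from -0.34 to 0.49 when single libraries were left out, its sign turning without control replicate 4 or Pcbp2βKO replicate 2 at 16.7 mM. For the 32 other fold changes of members, 550 of 652 alternative values kept sign and call, 2 gained the call and 100 turned in sign.

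The count of called members for glucose in control cells went from 4 to 2 with total counts, and ranged from 2 to 4 without single libraries, with 2 when control replicate 2 at 2.8 mM was left out. For the knockout at 2.8 mM it went from 1 to 2 with only the groups compared and to 2 without the 3 libraries that stood apart; at 16.7 mM it went to 2 without those 3 libraries, and ranged from 1 to 2 without single libraries. With the replicate block the counts were 4, 5, 1, 1 and 0, the fifth member under glucose in Pcbp2βKO cells being *Nqo1*. Among all genes, 3153 were called under glucose in control cells, against 4775 with the block, 4837 with total counts, 6915 and 9034 on the TPM scales, 4898 without the 3 libraries and 1382 to 4480 without single libraries. In Pcbp2βKO cells 8767 and 12486 genes were called on the TPM scales, against 5431. For the knockout, 464 genes were called at 2.8 mM and 389 at 16.7 mM, against 815 and 711 with DESeq2, 261 and 175 on log2(TPM + 1), 242 to 492 and 213 to 652 without single libraries, and at 16.7 mM 238 with only the groups compared and 587 without the 3 libraries. For the interaction 1 gene was called, against 32 with DESeq2, 15 without a filter and 13 with the block. The number of transcript shares counted as passing without single libraries ran from 0 to 1. The count of 1 is at odds with the exact test, because a smallest possible p of 0.0079 is too large for 1 pass among 32 adjusted tests. This count was therefore not read as a result. List genes called under glucose numbered 43 in control and 54 in Pcbp2βKO cells on log2(TPM + 0.1), against 20 and 26. The cause of these changes was not tested. The lowest single value of a member was 4.87 CPM.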
